A study of Mus musculus with 17 samples.

Results

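Voltage-gated sodium channels are built from a pore-forming alpha subunit and smaller beta subunits, and 9 genes of this family were followed through the dorsal root ganglion (DRG) libraries. They are the alpha subunit genes Scn1a, Scn3a, Scn8a, Scn9a, Scn10a and Scn11a and the beta subunit genes Scn2b, Scn3b and Scn4b, found by their symbols among the 19152 genes of the tables. The 9 were named for their function and not for a measured value, and 8 of them were among the 13408 genes tested. Scn3a was not, since its mean stayed under 1 FPKM (fragments scaled to transcript length and to library size) in each group. The design crossed genotype with injury in C57BL/6 mice. Mtor fl/fl mice, the control littermates without Cre, gave 4 baseline libraries (WT_BL) and 5 libraries from day 7 after bilateral spared nerve injury (WT_D7). Mtor-cKO mice, Adv-Cre::Mtor fl/fl, gave 4 libraries at each time (cKO_BL and cKO_D7), and both genotypes carry the floxed Mtor alleles. Adv-Cre acts in peripheral sensory neurons, so the other cells of the ganglion keep an intact Mtor. A library pooled the L4 and L5 DRGs of both sides from a mouse, so the spread given is between mice. The study used adult mice, aged 8 to 12 weeks in its biochemical tests, and the sex of the sequenced mice was not given in the sources used here.

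The alpha subunit forms the pore, opens when the membrane is depolarised and carries the inward sodium current of the action potential. Beta subunits bind the alpha subunit, by a disulphide bond in the case of Scn2b and Scn4b, and change its gating and its delivery to the cell surface. DRG neurons are known for an unusual set of alpha subunits, because nociceptors add the tetrodotoxin-resistant channels of Scn10a and Scn11a to the tetrodotoxin-sensitive ones that other neurons use.

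The libraries held 17060848 to 21076473 expected counts each (median 19375917). Mtor ranged from 8.58 to 15.97 FPKM in WT_BL against 3.16 to 6.36 in cKO_BL, and from 5.96 to 14.43 in WT_D7 against 3.44 to 5.83 in cKO_D7, with no overlap between genotypes at either time. Only exons 1 to 5 are excised, and reads from the other exons and from cells without Cre still count. All 10 genes of a pan-neuronal list were measured, with a summed level of 5501.80 to 8002.34 FPKM over the libraries, whereas 7 spinal cord markers summed to 1.87 to 3.23 FPKM. All 10 genes of an axonal injury list rose at day 7 in both genotypes, as did 625 (Mtor fl/fl) and 613 (Mtor-cKO) of the 13408 genes tested. Skeletal muscle genes were highest in cKO_BL replicate 2 and cKO_D7 replicate 1, at up to 518.93 FPKM summed over 9 genes. For each library a length index was computed, the median log2 deviation of 1902 genes with transcripts of at least 6000 bases minus that of 1459 genes with transcripts under 1500 bases. It was -0.48 in WT_BL replicate 3, -0.42 in WT_BL replicate 4 and -0.48 in WT_D7 replicate 5, and -0.13 to 0.30 in the other 14 libraries. In the same 3 libraries Schwann cell markers summed to 6109.55 to 7981.26 FPKM, against 3081.74 to 5612.89 FPKM elsewhere, and the part of cell make-up or RNA quality in the index was not tested. All 3 are Mtor fl/fl libraries and the alpha subunit transcripts run from 5899 to 11436 bases, so results for the tested subunit genes are also given without these 3 libraries where that changes a call.

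The 9 genes lie on 3 chromosomes of GRCm38. Scn3a, Scn1a and Scn9a share chromosome 2, where Scn1a (chr2:66270778-66440840) and Scn9a (chr2:66480080-66634962) are 39.2 kb apart on the minus strand. Scn8a lies on chromosome 15 (chr15:100869858-101045938). Chromosome 9 holds the other 5, with Scn10a (chr9:119608456-119719322) and Scn11a (chr9:119753759-119825456) 34.4 kb apart. Scn2b (chr9:45117782-45130070, 4 exons in its longest transcript) and Scn4b (chr9:45138395-45154152, 5 exons) are neighbours 8.3 kb apart, both on the plus strand. An annotated antisense transcript overlaps exons of Scn9a, and its reads could not be told apart from those of Scn9a if the counting did not use strand.

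RefSeq promoter windows of 300 bases (250 before to 50 after the start, GRCm38.p6) were given for 7 of the 9 genes, all but Scn3a and Scn3b. The windows of the neighbours Scn2b and Scn4b are shown because they had the highest and the lowest fitted genotype difference among the beta subunits, and capitals mark the only match to a searched motif in either of them. Scn2b spans chr9:45117626-45117925 and Scn4b chr9:45138374-45138673, both on the plus strand and read 5′ to 3′.
Scn2b: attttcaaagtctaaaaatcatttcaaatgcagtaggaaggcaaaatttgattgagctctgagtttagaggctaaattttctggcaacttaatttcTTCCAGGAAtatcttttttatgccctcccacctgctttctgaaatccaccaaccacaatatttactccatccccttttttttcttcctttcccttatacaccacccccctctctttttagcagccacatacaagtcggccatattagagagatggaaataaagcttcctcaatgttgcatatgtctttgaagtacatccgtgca
Scn4b: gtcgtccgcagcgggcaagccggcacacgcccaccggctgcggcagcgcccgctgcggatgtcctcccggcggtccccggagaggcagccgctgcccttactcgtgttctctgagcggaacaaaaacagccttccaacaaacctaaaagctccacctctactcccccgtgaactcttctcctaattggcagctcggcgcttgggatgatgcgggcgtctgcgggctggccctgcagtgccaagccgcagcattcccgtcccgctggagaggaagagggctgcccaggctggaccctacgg
The Scn2b window has a GC content of 38.3% and that of Scn4b 66.3%, on either side of the quartiles of all 32851 windows (45.7% and 61.7%). Both strands were searched for a STAT site (TTCNNNGAA), an AP-1 site (TGANTCA), a cAMP response element (TGACGTCA), an E-box (CACGTG), a GC box (GGGCGG) and a TATA box (TATAAA), none of which overlapped another match here. The STAT letters start 154 bases before the transcription start in Scn2b and 107 bases before it in Scn9a, and no motif was found in the other 5 genes' windows. Of all windows, 8.30% hold the STAT letters, 7.81% the AP-1, 1.79% the cAMP response element, 7.15% the E-box, 35.7% the GC box and 13.6% the TATA box letters. A match of letters is not evidence of binding.

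**Figure D1:**
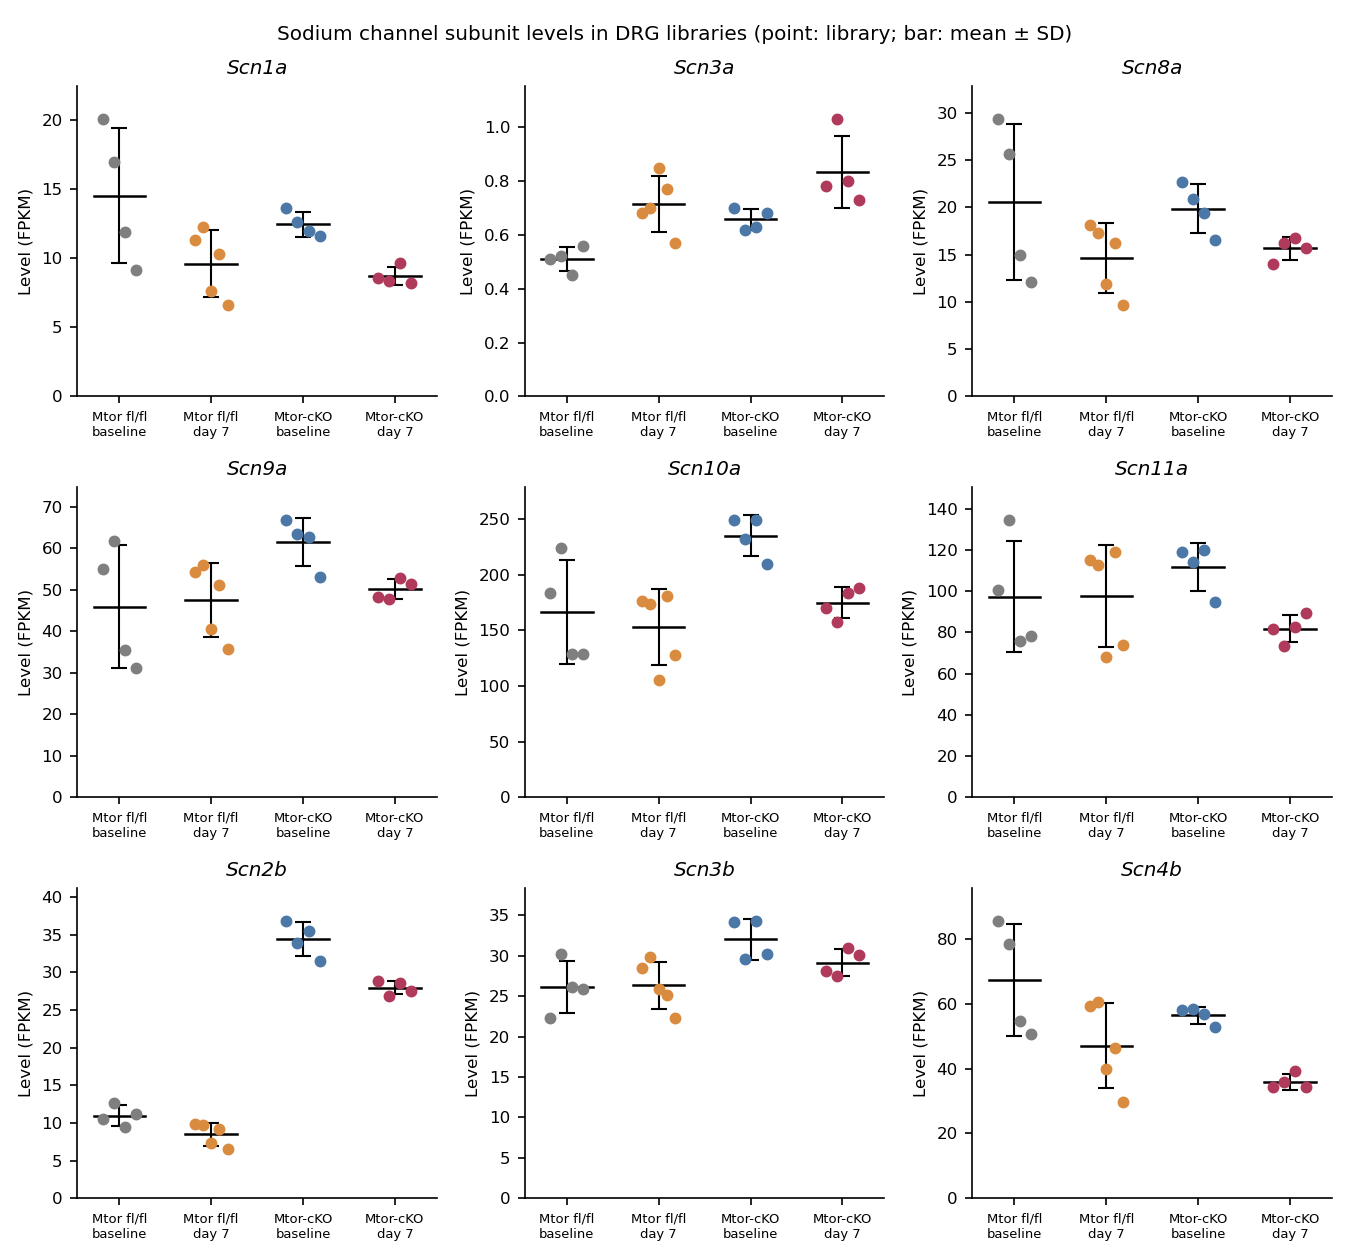
Level of each of the 9 subunit genes in FPKM (y axis, from 0) in the 4 groups (x axis), with a point for each library and the mean ± SD. Scn2b is the gene whose Mtor-cKO libraries (26.92 to 36.79 FPKM) all sit far above its Mtor fl/fl libraries (6.51 to 12.70 FPKM), and in Mtor fl/fl groups the alpha subunits are widely spread.

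The levels per length spanned a wide range, from Scn10a at the top to Scn3a at the bottom. In WT_BL, Scn10a, which carries most of the upstroke current in nociceptors, averaged 166.58 ± 46.44 FPKM (SD, n = 4) and Scn11a, whose persistent current acts near the resting potential, 97.33 ± 27.08. Scn4b, the subunit tied to resurgent current, followed at 67.34 ± 17.14 and Scn9a, whose loss in humans abolishes pain sensation, at 45.89 ± 14.82. Scn3b, a beta subunit bound without a disulphide bond, averaged 26.12 ± 3.21, Scn8a, the main channel of nodes of Ranvier, 20.54 ± 8.27, Scn1a, used by myelinated mechanosensory neurons, 14.55 ± 4.91, and Scn2b 10.97 ± 1.36 FPKM. Scn3a, abundant in embryonic neurons, stood at 0.51 ± 0.045 FPKM, with 75 to 178 counts per library over the study against 13248 to 31117 for Scn10a. The ranges of neighbours in this order overlapped except between Scn9a and Scn3b and between Scn2b and Scn3a. In cKO_BL the spread of the alpha subunits was narrower (SD 18.5 FPKM for Scn10a and 11.7 for Scn11a), and Scn2b moved up to the fifth place at 34.42 ± 2.29 FPKM, in a range that overlapped that of Scn3b (32.04 ± 2.52). Within the summed FPKM of the 6 alpha genes, Scn10a took 47.2 to 49.5% in WT_BL and Scn11a 25.9 to 30.1%, and Scn3a at most 0.215%.

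The question of the genotype comparison was how loss of Mtor in sensory neurons changes the ganglion's transcripts before and after injury. Scn2b was about 3 times as high in Mtor-cKO DRGs at both times, and it was the only subunit gene of the 8 tested to pass at either. Replicates 1 to 4 of WT_BL read 10.55, 12.70, 9.44 and 11.17 FPKM for Scn2b. In cKO_BL replicates 1 to 4 it was 36.79, 33.92, 35.50 and 31.46 FPKM. Each mutant library lay well above each control library, as 11.1% of all genes tested did without overlap in that direction. The log2 fold change was 1.65 (SE 0.15, a 3.13-fold difference, edgeR quasi-likelihood adjusted p = 3.96e-06). A gene passed at an adjusted p under 0.05 over all 13408 genes, which 15.9% of the genes tested did at baseline, 7.97% of them in the higher direction. Of the genes tested, 0.47% passed with a fold above 2 in the higher direction, as Scn2b did.

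At day 7 Scn2b stood at 9.85, 9.76, 7.28, 9.18 and 6.51 FPKM in WT_D7 replicates 1 to 5. In cKO_D7 replicates 1 to 4 it stood at 28.86, 26.92, 28.58 and 27.53 FPKM. The groups again lay wide apart (16.3% of all genes tested were higher without overlap), and the 4 mutant libraries close together. The log2 fold change was 1.67 (SE 0.14, 3.19-fold, edgeR adjusted p = 1.54e-06), where 26% of all genes tested passed and 1.14% passed with a fold above 2 in the higher direction. Over all alternatives the log2 fold change of Scn2b ran from 1.48 to 1.76 at baseline and from 1.55 to 1.88 at day 7, with an adjusted p of at most 0.000497. In whole ganglia, more RNA per cell and more cells of a type that makes the transcript cannot be told apart.

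**Figure D2:**
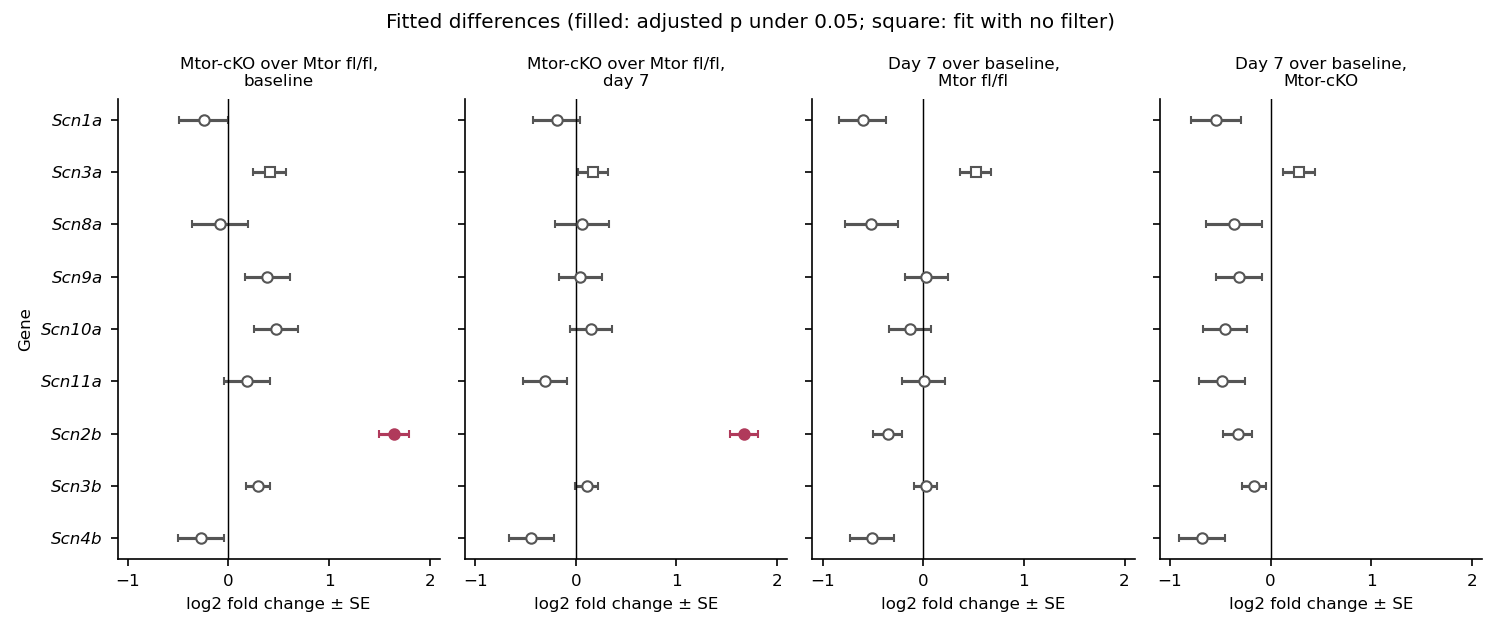
Fitted log2 fold change with its SE (x axis) of the 9 genes (y axis) in the comparisons of genotype at baseline and day 7 and of day 7 with baseline in each genotype. Filled symbols mark an adjusted p under 0.05, reached only by Scn2b in both genotype comparisons (1.65 and 1.67), and the squares give Scn3a from the fit with no filter.

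Neither of the other beta subunits passed between genotypes in the fit of all libraries. Scn3b was 22.30 to 30.16 FPKM in WT_BL and 29.57 to 34.26 FPKM in cKO_BL (log2 fold change 0.30, SE 0.12, edgeR adjusted p = 0.112), and the ranges overlapped. Its baseline difference passed as higher with limma on log2(FPKM + 0.1) (0.30, adjusted p = 0.0456), when scaled to pan-neuronal genes (0.29, adjusted p = 0.0359) and without WT_BL replicate 2 (0.41, adjusted p = 0.0198), where 17.1%, 13.1% and 18.4% of all genes tested passed in either direction. At day 7 the difference of Scn3b was 0.11 (SE 0.11, adjusted p = 0.514), and it passed only when scaled to pan-neuronal genes (0.30, adjusted p = 0.0112), a scaling that put the median of all genes at 0.20. Scn4b, the neighbour of Scn2b, pointed the other way. It was 85.47, 78.32, 54.78 and 50.77 FPKM in WT_BL and 58.01, 58.53, 56.72 and 52.76 FPKM in cKO_BL, so the mutant libraries sat in the lower part of the control range (-0.27, SE 0.23, adjusted p = 0.48). At day 7 it was 59.30, 60.42, 39.74, 46.40 and 29.60 FPKM in WT_D7 and 34.29, 35.81, 39.25 and 34.26 FPKM in cKO_D7 (-0.44, SE 0.22, adjusted p = 0.151). Only WT_D7 replicate 5 lay below the mutant libraries. Without it Scn4b passed at -0.59 (adjusted p = 0.0293), where 29.8% of all genes tested passed in either direction. Without the 3 libraries low in the length index Scn4b passed as lower at both times, at -0.61 (adjusted p = 0.00541) and -0.58 (adjusted p = 0.00142), where 15.1% and 21.5% of all genes passed in that direction. With all libraries and the length index as a covariate Scn4b also passed as lower at both times. In those fits 30.1% and 50.4% of all genes tested passed in either direction.

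The make-up of the 3 beta genes therefore differed by genotype inside each library. Scn2b took 8.92 to 12.7% of their summed FPKM in WT_BL and 9.76 to 11.4% in WT_D7, against 27.5 to 28.5% in cKO_BL and 28.9 to 31.6% in cKO_D7. Scn4b took 57.8 to 72.2% in WT_BL and 44.8 to 48.0% in cKO_BL, and 50.7 to 60.8% in WT_D7 against 37.3 to 39.7% in cKO_D7. The ratio of Scn2b to Scn4b FPKM had a median of 0.167 in WT_BL, 0.183 in WT_D7, 0.611 in cKO_BL and 0.778 in cKO_D7. These shares restate the levels above and were not tested.

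**Figure D3:**
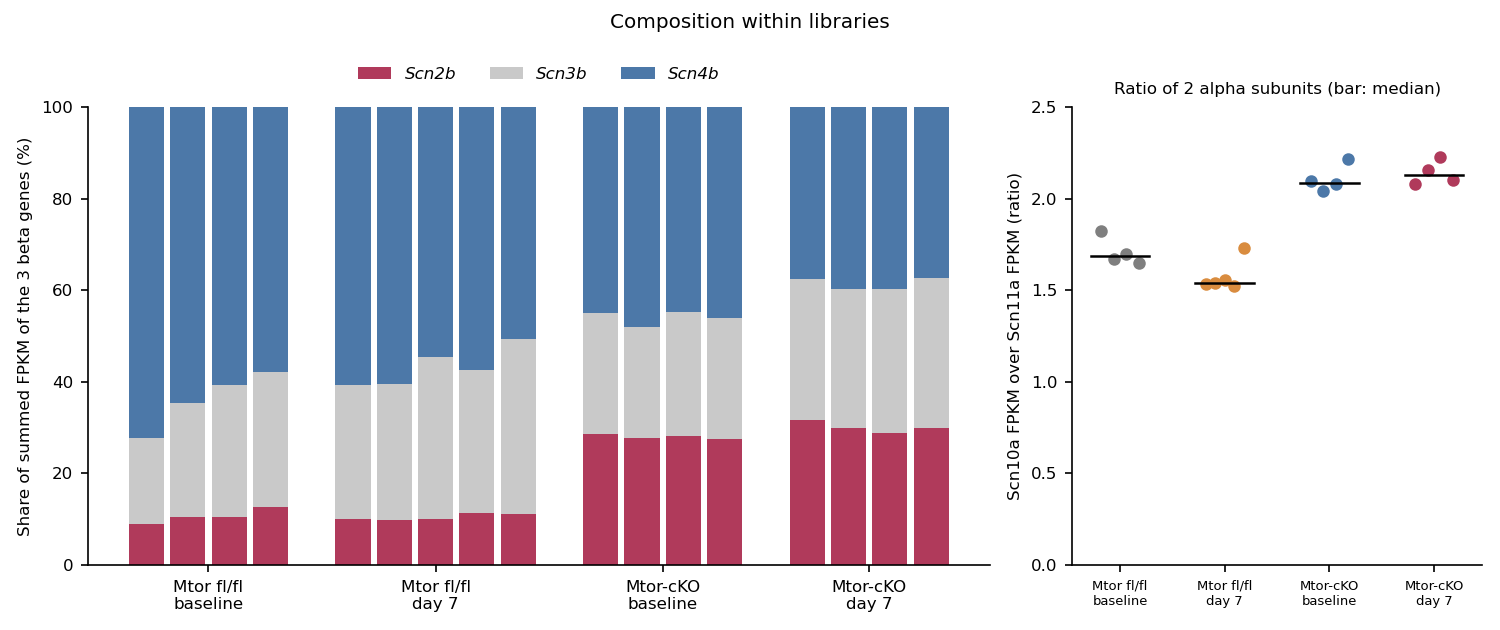
Left, the share in percent of Scn2b, Scn3b and Scn4b in their summed FPKM (y axis) with a bar for each library in the 4 groups (x axis). Right, the ratio of Scn10a to Scn11a FPKM in each library (y axis, from 0) with the median of each group. The Scn2b share is at most 12.7% in Mtor fl/fl and at least 27.5% in Mtor-cKO libraries, and each Mtor-cKO ratio (2.04 to 2.22) lies above each Mtor fl/fl ratio (1.52 to 1.82).

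None of the 5 alpha subunit genes tested passed between genotypes at either time. The nociceptor gene Scn10a came closest at baseline. It was 183.79, 224.49, 129.06 and 128.98 FPKM in WT_BL and 249.06, 232.32, 249.06 and 209.96 FPKM in cKO_BL (0.48, SE 0.22, edgeR adjusted p = 0.159). The 2 low control values belong to the libraries low in the length index. With the index as a covariate Scn10a passed as higher (0.40, adjusted p = 0.0132), and it also passed without WT_BL replicate 2 (0.70, adjusted p = 0.0301), whereas without the 3 low libraries its difference was 0.12 (adjusted p = 0.647). Scaled to pan-neuronal genes it passed at 0.51 (adjusted p = 0.0238). In the fits where Scn10a passed, 30.1%, 18.4% and 13.1% of all genes tested passed in either direction, in the order given. Scn9a was 55.00, 61.81, 35.57 and 31.18 FPKM in WT_BL and 66.77, 63.41, 62.84 and 53.15 FPKM in cKO_BL (0.39, SE 0.23, adjusted p = 0.276), with the same 2 control libraries low. It passed as higher with the covariate (0.31, adjusted p = 0.00652), as 15.3% of all genes did, and turned to -0.02 without the 3 libraries. Scn11a differed by 0.18 (SE 0.23, adjusted p = 0.645).

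Scn1a and Scn8a, both used by myelinated neurons, had fitted baseline values below 0 that did not pass. Scn1a was 20.09, 16.99, 11.95 and 9.17 FPKM in WT_BL and 13.68, 12.67, 11.99 and 11.59 FPKM in cKO_BL (-0.24, SE 0.25, edgeR adjusted p = 0.556). Scn8a was 29.33, 25.70, 14.98 and 12.14 FPKM in WT_BL and 22.68, 20.92, 19.37 and 16.55 FPKM in cKO_BL (-0.09, SE 0.28, adjusted p = 0.876), which was 0.0369 with limma and up to 0.16 with a library left out. In each, WT_BL replicates 1 and 2 lay above all mutant libraries and replicate 4 below them. Without the 3 libraries low in the length index, which leaves only WT_BL replicates 1 and 2 as controls, Scn1a (-0.65, adjusted p = 0.00505) and Scn8a (-0.56, adjusted p = 0.0183) passed as lower. With all libraries and the length index as a covariate Scn1a also passed as lower at baseline and Scn8a did not, where 30.1% of all genes tested passed in either direction. Of 9 markers of large myelinated neurons, 3 fell in Mtor-cKO DRGs at baseline in the fit of all libraries, among them the neurofilament genes Nefh (-1.08, adjusted p = 0.00244) and Nefm (-1.14, adjusted p = 0.00289), where 15.9% of all genes tested passed. The median of the 9 was -0.08, against -0.01 over all genes tested, and Pvalb of the same list stood at 0.21 (adjusted p = 0.688) and rose at day 7 (0.94, adjusted p = 0.0227). The part of these cells in the differences of Scn1a and Scn8a was not tested. At day 7 the alpha subunits differed by between -0.30 (Scn11a) and 0.15 (Scn10a), with adjusted p-values of 0.318 to 0.897. With the length index as a covariate Scn11a (-0.50, adjusted p = 0.00287) and Scn1a (-0.42, adjusted p = 0.00493) passed as lower, where 50.4% of all genes tested passed in either direction. The ratio of the adjacent genes Scn10a and Scn11a varied little within a genotype, a pattern picked out after its values were seen and not tested. Scn10a over Scn11a was 1.65 to 1.82 in WT_BL, 1.52 to 1.73 in WT_D7, 2.04 to 2.22 in cKO_BL and 2.08 to 2.22 in cKO_D7. The ranges of the genotypes did not overlap at either time.

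**Figure D4:**
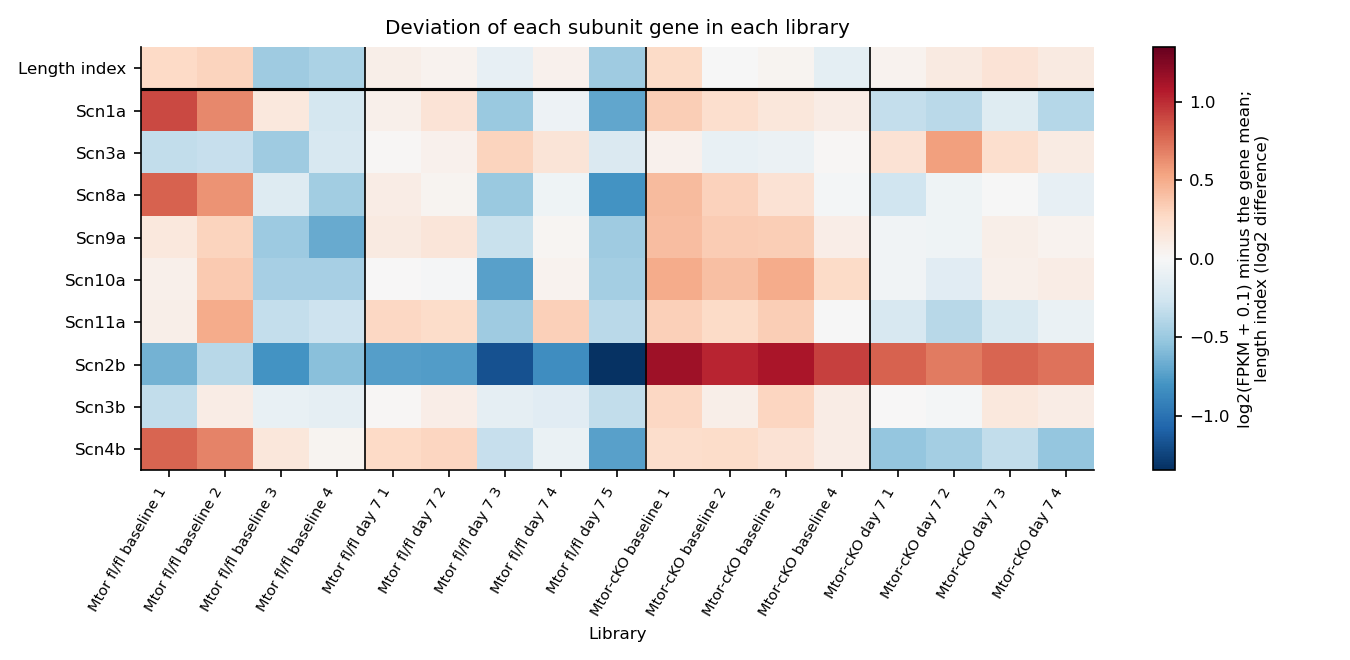
Deviation of each gene from its own mean, in log2(FPKM + 0.1), in each library (columns, grouped), with the length index of the library in the top row. WT_BL replicates 3 and 4 and WT_D7 replicate 5, the libraries with an index of -0.48 to -0.42, are low in most alpha subunits, as is WT_D7 replicate 3 with an index of -0.11 (-0.74 for Scn10a), and Scn2b (up to 1.15 in Mtor-cKO and down to -1.33 in Mtor fl/fl) separates by genotype.

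The injury comparison asked which transcripts differ 7 days after spared nerve injury. No subunit gene passed in Mtor fl/fl DRGs (0 of 8 with edgeR, while DESeq2 also called 0), where 7.24% of all genes tested passed. At an unadjusted edgeR p under 0.05 there were 3 of 8, beside 2670 of the 13408 genes tested. Scn1a went from 20.09, 16.99, 11.95 and 9.17 FPKM in WT_BL to 11.32, 12.31, 7.62, 10.30 and 6.59 FPKM in WT_D7 (log2 fold change -0.60, SE 0.23, adjusted p = 0.148). Scn8a went to 18.12, 17.33, 11.92, 16.26 and 9.62 FPKM (-0.51, SE 0.26, adjusted p = 0.299), and Scn4b, with the values above, differed by -0.51 (SE 0.22, adjusted p = 0.194). Scn2b differed by -0.35 (SE 0.14, adjusted p = 0.166). In these 4 genes the day 7 libraries overlapped the baseline range through WT_BL replicates 3 and 4, or replicate 3 alone for Scn2b. Scn9a, Scn10a, Scn11a and Scn3b stayed between -0.13 and 0.03, with adjusted p-values of 0.805 to 0.996.

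Whether the 4 lower genes passed after injury in Mtor fl/fl mice differed between settings. Without the 3 libraries low in the length index, Scn1a (-0.87, edgeR adjusted p = 0.00201), Scn8a (-0.85, adjusted p = 0.00343), Scn4b (-0.71, adjusted p = 0.00499) and Scn2b (-0.41, adjusted p = 0.0303) passed as lower. That is 4 of 8 where 9.52% of all genes tested passed in the lower direction, and it rests on 2 baseline libraries. The same 4 passed with the length index as a covariate, at -0.36 to -0.56, where 9.04% of all genes passed as lower. Scaled to pan-neuronal genes, with all libraries, Scn1a (-0.64, adjusted p = 0.0145), Scn4b (-0.57, adjusted p = 0.0112) and Scn2b (-0.42, adjusted p = 0.00273) passed as lower, where 8.09% of all genes tested passed in either direction. Scn1a alone also passed without WT_BL replicate 4 (-0.79, adjusted p = 0.0328), where 7.35% of all genes tested passed in either direction. Of 9 markers of large myelinated neurons, 3 fell after injury in the fit of all libraries, beside the 7.24% of all genes tested that passed, and their part in these values was not tested.

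In Mtor-cKO DRGs the 8 tested genes all had lower fitted values at day 7, and none passed (0 of 8 with edgeR, and 1 with DESeq2), where 6.95% of all genes tested passed. At an unadjusted edgeR p under 0.05 there were 3 of 8, beside 3439 of the 13408 genes tested. DESeq2 called Scn4b at -0.70 (adjusted p = 0.0254), and 6.9% of all genes as lower. The median log2 fold change of the 8 genes was -0.41, against -0.0024 over all genes tested. Scn4b, at 58.01, 58.53, 56.72 and 52.76 FPKM before and 34.29, 35.81, 39.25 and 34.26 FPKM after injury, differed by -0.68 (SE 0.23, adjusted p = 0.083). Scn1a was 13.68, 12.67, 11.99 and 11.59 FPKM before and 8.61, 8.38, 9.65 and 8.24 FPKM after (-0.55, SE 0.25, adjusted p = 0.177). In both genes every day 7 library lay below every baseline library. Scn11a was 118.87, 113.88, 119.81 and 94.68 FPKM before and 81.69, 73.24, 82.56 and 89.53 FPKM after (-0.48, SE 0.23, adjusted p = 0.196). Scn10a was 249.06, 232.32, 249.06 and 209.96 FPKM before and 170.02, 157.77, 183.60 and 188.29 FPKM after (-0.46, SE 0.22, adjusted p = 0.201). The groups of these nociceptor channels were also apart. Scn9a (-0.31, adjusted p = 0.4) and Scn2b (-0.33, adjusted p = 0.172) did not overlap either, and Scn8a (-0.37, adjusted p = 0.428) and Scn3b (-0.16, adjusted p = 0.413) did. In all 6 of 9 genes were lower in each day 7 library, where 13.4% of all genes tested were. Other neuronal lists also had medians below 0 in the same comparison. The 10 pan-neuronal genes had a median of -0.27, 7 of them lower in each day 7 library, and 1 rose and 2 fell. All 7 markers of nonpeptidergic nociceptors (median -0.28) and all 5 of C low-threshold mechanoreceptors (median -0.25) were below 0, and none of these passed. Gfra2 belongs to both lists. Of 6 peptidergic nociceptor markers 4 were below 0 (median -0.29) and 1 fell, while Adcyap1 stood at 0.41. Of 9 markers of large myelinated neurons 8 were below 0 (median -0.37, highest 0.46) and 1 fell.

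The fit of all 17 libraries takes 1 estimate of spread per gene, in which the wide Mtor fl/fl groups count. Fitted on the 8 Mtor-cKO libraries alone, 7 of 8 genes passed as lower, all but Scn3b, where 14.3% of all genes tested passed in that direction. There Scn4b differed by -0.68 (edgeR adjusted p = 0.000127), Scn1a by -0.54 (adjusted p = 0.000754), Scn11a by -0.47 (adjusted p = 0.00433) and Scn10a by -0.45 (adjusted p = 0.00313). The sizes were close to those of the joint fit, and the standard errors were what changed. The same 7 passed with the length index as a covariate, and 6, without Scn8a, when the 3 low libraries were left out of the joint fit (lower direction 18.2% and 12% of all genes). Of 10 macrophage markers 1 passed, as higher at day 7, in the edgeR fit of all libraries. All 10 reached an unadjusted p under 0.05 there, as did 3439 of the 13408 genes tested. The macrophage markers summed to 112.90 to 252.03 FPKM in cKO_BL and 287.39 to 500.58 FPKM in cKO_D7, and muscle genes to 452.19 FPKM in cKO_D7 replicate 1. The part of other cells' RNA in the lower neuronal values was not tested.

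Scn3a, which in rats is known to return to adult DRG neurons after axotomy, was the only one of the 9 that was higher after injury in both genotypes without overlap. It was 0.51, 0.52, 0.45 and 0.56 FPKM in WT_BL and 0.68, 0.70, 0.85, 0.77 and 0.57 FPKM in WT_D7. In Mtor-cKO it was 0.70, 0.62, 0.63 and 0.68 FPKM before and 0.78, 1.03, 0.80 and 0.73 FPKM after. The highest baseline and the lowest day 7 libraries nearly touched in each genotype, at 0.56 against 0.57 and 0.70 against 0.73 FPKM, and 4.65% and 15.7% of all genes tested were higher without overlap. With no filter on low levels the log2 fold change was 0.52 in Mtor fl/fl (SE 0.15, edgeR adjusted p = 0.0635) and 0.28 in Mtor-cKO (SE 0.16, adjusted p = 0.327). With edgeR's filterByExpr in place of the FPKM filter the former passed (0.52, adjusted p = 0.0439). Scn3a therefore stayed far below the other alpha subunits, at a ratio to Scn8a of at most 0.0713 in any library.

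The injury response was not shown to differ between the genotypes for any subunit gene. The interaction of injury and genotype, the Mtor-cKO response minus that of Mtor fl/fl, ran from -0.49 (Scn11a, SE 0.31, edgeR adjusted p = 0.533) to 0.15 (Scn8a, SE 0.38, adjusted p = 0.909). None of 8 passed, DESeq2 called 0, and 0.082% of all genes tested passed. None of 8 reached an unadjusted edgeR p under 0.05 either, which 1742 of the 13408 genes tested did. For Scn2b the interaction was 0.03 (SE 0.20, adjusted p = 0.977), and its injury difference was -0.35 in Mtor fl/fl and -0.33 in Mtor-cKO. With the length index as a covariate Scn9a (-0.50, adjusted p = 0.00916) and Scn11a (-0.60, adjusted p = 0.0304) passed, where 6.81% of all genes passed in the lower direction.

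Among other sodium channel genes outside the 9, Scn2a1 (the files' symbol for Scn2a, the alpha subunit of central axons) was low and rose in Mtor-cKO. It was 1.22, 1.06, 0.66 and 0.86 FPKM in WT_BL and 1.87, 1.59, 1.49 and 1.40 FPKM in cKO_BL (0.74, SE 0.16, edgeR adjusted p = 0.00606), and it was also higher at day 7 (0.48, adjusted p = 0.031). Scn4a, the skeletal muscle channel, was lower in Mtor-cKO at day 7 (-0.67, adjusted p = 0.0416), at 0.50 to 0.84 FPKM against 0.80 to 1.38. Muscle marker genes rose there, 9 of 9, where 26% of all genes tested passed. Their sum in cKO_D7 was 452.19 FPKM in replicate 1 and 31.72 to 64.09 in the other libraries, against 5.96 to 34.83 in WT_D7. The part of muscle RNA in the Scn4a difference was not tested. Scn7a, a sodium-sensing relative, passed in none of these comparisons.

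Of 17 partners and regulators of these channels, 1 rose and 1 fell with genotype at baseline and 3 rose and 3 fell at day 7, where 15.9% and 26% of all genes tested passed. Fgf11, an intracellular fibroblast growth factor homologue of the family that binds the channel's tail, fell the most. It averaged 9.83 ± 2.57 FPKM in WT_BL (SD, n = 4) and 2.86 ± 0.132 in cKO_BL (-1.86, SE 0.19, edgeR adjusted p = 9.51e-06), and 12.07 ± 2.16 in WT_D7 (n = 5) and 5.00 ± 0.742 in cKO_D7 (-1.24, adjusted p = 0.000102). Sptbn4, the spectrin that anchors channels at nodes and initial segments, rose at both times (0.58, adjusted p = 0.00856, and 0.67, adjusted p = 0.00152). Ank3, the ankyrin of the same scaffold, rose at day 7 (0.41, adjusted p = 0.0118). S100a10, which carries Scn10a channels to the membrane, fell in Mtor-cKO at day 7 (-0.64, adjusted p = 0.00545) and rose after injury in Mtor fl/fl (0.60, adjusted p = 0.0225). Rest, a repressor of neuronal genes, rose after injury in Mtor-cKO from 0.69 to 0.77 FPKM in the baseline libraries to 1.03 to 1.38 at day 7 (0.68, adjusted p = 0.0132), as did Fgf11 (0.85, adjusted p = 0.0116), while Fgf13 fell (-0.37, adjusted p = 0.0278). In a list of sodium pump and leak channel genes, Nalcn, the leak channel, rose in Mtor-cKO at baseline (0.56, adjusted p = 0.0393) but did not pass without the 3 libraries low in the length index (0.27, adjusted p = 0.0953), and the pump subunit Atp1b3 fell at day 7 (-0.35, adjusted p = 0.00454).

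The genes whose levels followed Scn2b most closely over the 17 libraries were Pianp, Slc6a7 and Rpp25, by the root mean square difference in mean-centred log2 counts scaled to library size (CPM). Pianp, a ligand of an immune receptor, differed from Scn2b by 0.132, Slc6a7, a proline transporter of neurons, by 0.220 and Rpp25, a protein of the RNase P complex, by 0.220, against a median of 0.911 over all other genes tested. Pianp was higher in Mtor-cKO by 1.61 on the log2 scale at baseline (adjusted p = 5.41e-05) and 1.55 at day 7 (adjusted p = 2.44e-05), from a mean of 10.52 FPKM in WT_BL to 32.25 in cKO_BL. They were chosen for this likeness, so their differences are a description.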

How the data were processed

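RNA was sequenced on the BGISEQ-500. GRCm38.p5 is the genome of the methods, while the submitters' processing notes list mm9, HISAT2 2.0.4, Bowtie2 2.2.5 and RSEM 1.2.12. The authors deposited expected counts, RSEM estimates per gene without scaling of which 34.2% are not whole, and FPKM, which the authors had scaled to transcript length and library size. Groups came from the sample labels. Columns of 8 libraries without a sample, and the authors' own comparison sheets of fold changes and p-values, were not used, and 1 row without a name held 0 counts. In 11 genes the symbol was mended by gene ID.

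Counts were rounded and fitted in edgeR 4.0.16 (R 4.3.3; TMM, quasi-likelihood F tests, 1 coefficient per group, all 17 libraries) for genes whose group mean reached 1 FPKM in any group, and p-values were adjusted by the Benjamini-Hochberg method over all of them. SE, approximate, was taken as the absolute log2 fold change divided by the root of the F statistic. The script was tested on simulated data. Alternatives were DESeq2 1.42.0, limma 3.58.1 on log2(FPKM + 0.1), RLE normalization, filterByExpr, no filter, a replicate block, scaling to pan-neuronal genes, fits of the 2 groups, and libraries left out. A covariate and a subset of libraries by transcript length were added after seeing the data. Lengths and gene positions came from GENCODE M21 (GRCm38), with a length for 96.78% of genes tested, and promoters from RefSeq. Python 3.11.15, pandas and Matplotlib made tables and figures.

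The subunit genes and lists were chosen with earlier results of these data known. Values were given for all subunit genes, for at most 6 genes per related list with the smallest p, and for the 3 genes nearest to Scn2b, and a few genes of these lists are not reported here. Depth was 17060848 to 21076473 counts per library, and Scn3a had the fewest counts of the subunit genes, 75 to 178.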

Additional observations from a re-analysis of the deposited data

How the results depend on the processing

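The higher Scn2b level in Mtor-cKO DRGs held at both times under each alternative run. The number of subunit genes passing changed as follows, with the share of all genes passing in either direction beside it. For injury in Mtor fl/fl (0, 7.24%) it was 1 with filterByExpr (6.71%), 3 when scaled to pan-neuronal genes (8.09%), 4 with the length index as a covariate (20%), 4 without the 3 libraries lowest in it (18.2%) and 0 to 1 when each library was left out. For injury in Mtor-cKO (0, 6.95%) it was 1 with DESeq2 (13.6%), 1 when scaled to pan-neuronal genes (5.04%), 7 in the fit of the 2 groups (31.2%), 7 with the covariate (37%) and 6 without the 3 libraries (27.3%). For genotype at baseline (1, 15.9%) it was 2 with limma on log2(FPKM + 0.1) (17.1%), 3 when scaled to pan-neuronal genes (13.1%), 5 with the covariate (30.1%), 4 without the 3 libraries (26.6%) and 1 to 3 over the libraries left out, 3 without WT_BL replicate 2 (Scn10a, Scn3b and Scn2b). For genotype at day 7 (1, 26%) it was 2 when scaled (28.7%), 4 with the covariate (50.4%), 2 without the 3 libraries (45%) and 1 to 2 over the libraries left out. For the interaction (0, 0.082%) it was 2 with the covariate (13.9%). Both settings of the length index were chosen after the data were seen, and the cause of these changes was not tested beyond the smaller spread of the 2-group fit. Scaling to pan-neuronal genes moved the median of all genes from 0.0340 to 0.20 at day 7 between genotypes and from -0.0024 to 0.13 for injury in Mtor-cKO, beside which the Scn3b call at day 7 (0.30, adjusted p = 0.0112) is read.

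Replicate numbers are shared by the groups, but each library came from another mouse, so they do not pair measurements of a mouse. Correlations of same-numbered libraries ran from -0.47 to 0.62. Whether a shared number marks libraries handled together cannot be read from these values and was not tested. With the replicate number as a block, 1 gene (Scn4b) passed for injury in Mtor-cKO, where 12.6% of all genes tested passed in either direction. For genotype at day 7, 2 passed (Scn4b and Scn2b), where 31.7% of all genes tested did. The block turned the sign of the genotype differences of Scn8a (-0.0386) and Scn9a (-0.0390) at day 7. It also turned that of the interactions of Scn1a (-0.0989), Scn8a (-0.0163) and Scn2b (-0.0781).

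Other differences that did not pass also changed sign. For injury in Mtor fl/fl they were, in the order scaled, without the 3 libraries highest in muscle genes and without the 3 low libraries, -0.0004, -0.0956 and -0.26 for Scn9a and -0.0431, -0.12 and -0.22 for Scn11a, and -0.0425 and -0.0011 for Scn3b in the former 2. Of the 3 highest in muscle genes, only WT_BL replicate 3 belongs to this comparison. Its muscle genes summed to 78.99 FPKM, against 78.23 in cKO_BL replicate 4, which was kept, and it is also among the 3 low libraries. For genotype at baseline the differences that changed sign were 0.0369 for Scn8a with limma and -0.0171 for Scn9a and -0.15 for Scn11a without the 3 low libraries. At day 7 they were 0.0249 for Scn1a when scaled, -0.22, -0.19 and -0.0519 for Scn8a, Scn9a and Scn10a with the covariate, and -0.0696 and -0.0587 for Scn8a and Scn9a without the 3 libraries. For the interaction they were -0.0931, -0.0446 and -0.0217 for Scn1a, Scn8a and Scn2b with the covariate, -0.0166 for Scn2b with filterByExpr, 0.0147 and 0.0241 for Scn3b and Scn4b when scaled, and 0.0313 for Scn4b without the 3 libraries. With each library left out, injury in Mtor fl/fl ran from -0.26 to 0.0898 for Scn10a, -0.12 to 0.24 for Scn11a, -0.0355 to 0.14 for Scn3b and -0.14 to 0.25 for Scn9a, genotype from -0.29 to 0.16 for Scn8a at baseline, -0.0734 to 0.17 for Scn8a and -0.0624 to 0.12 for Scn9a at day 7, and the interaction from -0.17 to 0.24 for Scn1a, -0.0926 to 0.11 for Scn2b and -0.0958 to 0.36 for Scn8a.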

Other observations

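Of 15 other tested genes within 500 kb of Scn2b, Scn4b among them, 0 were higher and 2 lower in Mtor-cKO DRGs at baseline. At day 7, 3 were higher and 3 lower. These counts are at an edgeR adjusted p under 0.05, which 15.9% of all genes tested reached at baseline and 26% at day 7. The strongest of the 15, singled out after its values were seen, was Fxyd2, which encodes the gamma subunit of the sodium pump. It averaged 1178.18 FPKM in WT_BL and 487.65 in cKO_BL (log2 fold change -1.25, adjusted p = 0.000167), and 1056.56 in WT_D7 and 414.22 in cKO_D7 (-1.38, adjusted p = 3.38e-05), with no overlap between genotypes at either time.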
